A study of Mus musculus with 18 samples.

Results

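The loss of cyclin C was compared between primary mouse embryonic fibroblasts and mouse embryonic stem (ES) cells, gene by gene, as a difference of differences. For each gene the knockout effect, knockout minus wild type on the log2 scale, was taken in fibroblasts and in ES cells, and the ES cell effect was subtracted from the fibroblast effect. A positive difference therefore means that the knockout moved the gene up in fibroblasts relative to ES cells, and a negative one that it moved the gene down. The comparison used 12 of the series' 18 single-colour expression arrays, 3 in each of 4 groups: cyclin C knockout fibroblasts (genotype CCNC-/-), wild-type fibroblasts, cyclin C knockout ES cells and wild-type ES cells. The other 6 arrays, of embryonic brain, entered no difference. The labels call the 3 samples of a group biological replicates and name no treatment, strain or clone, so the p-values measure the spread between these samples. The sources used here do not say how the knockout was made or whether the ES cells and the fibroblasts carry the same allele.

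CDK8 and CDK19 need cyclin C as their regulatory subunit. Joined to MED12 and MED13 or their paralogs, the pair makes up Mediator's kinase module. Mediator itself bridges DNA-bound transcription factors and RNA polymerase II. The module can block the contact of Mediator with the polymerase and can phosphorylate transcription factors, and its effect on a gene is known to depend on which factors act there. Fibroblasts and ES cells are known to use very different sets of such factors. No factor was measured at a gene here. The difference shows for which genes the knockout effect was unequal, and the part of such factors was not tested.

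The cell types matched their labels. Over 8 ES cell markers the mean log2 level per array was 6.52 to 6.73 in fibroblasts and 12.30 to 12.92 in ES cells, and over 12 fibroblast markers it was 12.28 to 12.56 in fibroblasts and 7.29 to 7.47 in ES cells. Replicates were tighter in fibroblasts, with a median standard deviation (SD) per gene of 0.0787 in knockout and 0.0644 in wild-type arrays, against 0.164 in knockout and 0.149 in wild-type ES arrays. ES knockout replicate 1 stood apart: the mean of 12 extraembryonic endoderm markers was 9.38 there, against 7.15 and 7.27 in the other ES knockout arrays and 7.01 to 7.35 in the ES wild-type arrays. The arrays numbered 1 in all 4 groups also carried Y-linked signal that the others lacked. Ddx3y read 10.04 in the knockout and 10.11 in the wild-type fibroblast array numbered 1, 6.83 and 7.75 in the knockout and wild-type ES arrays numbered 1, and at most 5.25 in the other 8. Bacterial hybridization spikes, which hold no cell RNA, also moved with genotype. Over 18 probe sets they averaged 11.45, 11.52 and 11.40 in knockout and 10.83, 10.86 and 11.05 in wild-type fibroblasts, and 12.70, 12.77 and 12.73 in knockout and 13.04, 13.03 and 12.89 in wild-type ES cells. The difference of the spike effects was 0.80 (2-sided exact permutation p = 0.005 over 400 arrangements of the labels within cell types, the smallest possible). For 18S rRNA probe sets it was 1.66 (exact permutation p = 0.02). The 3′ minus 5′ signal of Actb and Gapdh, a sign of RNA quality, gave differences of 0.02 (exact permutation p = 0.56) and 0.01 (exact permutation p = 0.695). The part of the spikes, of 18S rRNA and of the arrays numbered 1 in the results below was not tested, apart from the counts given without these arrays.

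Ccnc itself, on chromosome 4, was lower in every knockout array. It read 8.28, 8.24 and 8.3 in knockout and 9.56, 9.61 and 9.54 in wild-type fibroblasts, and 6.68, 6.78 and 7.33 in knockout and 9.28, 9.47 and 9.14 in wild-type ES cells. The groups did not overlap in either cell type, and knockout fibroblasts kept the higher signal. The effects were -1.29 (standard error, SE, 0.05) in fibroblasts and -2.37 (SE 0.19) in ES cells, a difference of 1.07 (SE 0.20, 95% confidence interval 0.62 to 1.52) that did not pass the test over all genes (limma adjusted p = 0.069). It passed without ES knockout replicate 3 (1.27, adjusted p = 0.0498), with array weights (adjusted p = 0.031) and with 1 spread shared by all 18 arrays (adjusted p = 0.0348). A second, dimmer probe set gave -0.76 and -1.15, a difference of 0.39 (adjusted p = 0.497). The sources used here do not place these probes against the deletion, and the signal is therefore no measure of intact transcript.

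The knockout effect differed between the cell types for 53 of 17091 genes, 18 with a positive and 35 with a negative difference (limma, Benjamini-Hochberg adjusted p below 0.05). That is 0.31% of genes, 0.105% positive and 0.205% negative. At an unadjusted p below 0.05 there were 1264 positive (7.4%) and 974 negative (5.7%) differences. The differences called ran from 0.57 upwards in absolute size with a median of 0.99, and 26 were at least 1, that is, 2-fold in ratio. For 43 of the 53 genes the effects had opposite signs, which choosing genes by a large difference itself favours. Of the 53, 36 had a fibroblast effect that was called by itself, 25 lower and 11 higher, while 1 had a called ES effect. In each cell type alone, 1216 genes (7.11%) rose and 842 (4.93%) fell in knockout fibroblasts, against 2 genes (0.0117%) called in ES cells, Ccnc and 4933402E13Rik. The ES cell effect had a median SE of 0.14, against 0.07 for the fibroblast effect. Some of the called genes had little signal, called dim below: both group means lay below the 40th percentile of genes in ES cells for 30 of them, in fibroblasts for 12, and in both for 6. By construction at most 40% of all genes are dim in a cell type. Near background an array shows little of any change. In these bulk samples fewer cells expressing a gene and less RNA per cell cannot be told apart.

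**Figure D1:**
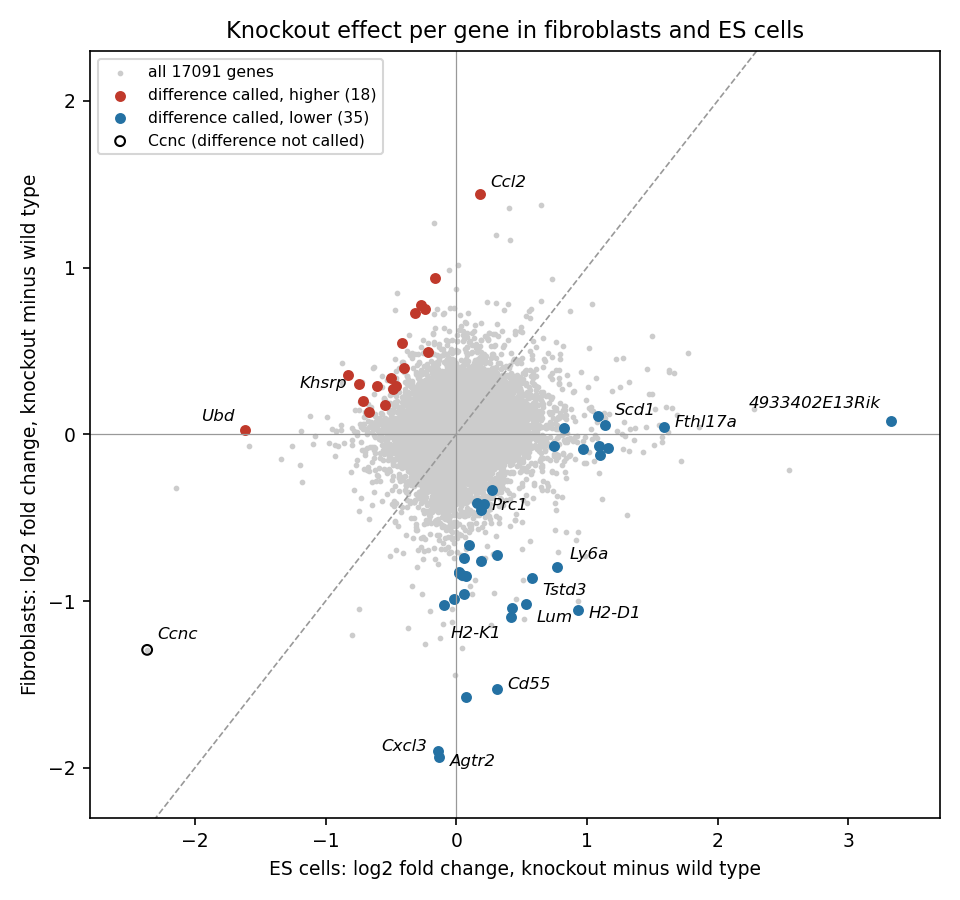
Each point is 1 of 17091 genes, with its knockout effect (log2 fold change, knockout minus wild type) in fibroblasts on the vertical axis and in ES cells on the horizontal axis. The dashed line marks equal effects; the 18 genes with a positive called difference lie above it, the 35 with a negative one below it, and Ccnc lies at -1.29 and -2.37.

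Across all genes the effects had a Pearson r of 0.09 and a Spearman rho of 0.09, given as a description, since genes of 1 array are not independent replicates. The median difference over all genes was 0.05. In fibroblasts, same-numbered knockout and wild-type arrays deviated together (r = 0.363, 0.165 and 0.19). Differently numbered ones had r from -0.305 to 0.136, the highest close to the 0.165. With the replicate numbers as a block in fibroblasts 81 genes were called, 32 positive and 49 negative, which held all 53. That block was chosen from these correlations, so its count is no independent support. Single ES arrays weighed on the count. Without ES knockout replicate 1, 2 or 3 it was 92, 10 and 14, and without ES wild-type replicate 1, 2 or 3 it was 20, 15 and 11. Without fibroblast knockout replicate 1 it was 94, and without any other fibroblast array 40 to 71. Of the 53 calls, 5 held in all 12 of these fits: 4933402E13Rik, Agtr2, H2-K1, Gng10 and Khsrp. None of the 53 turned its sign in any setting run.

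The clearest opposite movement was in the classical major histocompatibility complex (MHC) class I genes on chromosome 17. Both H2-D1 and H2-K1, the heavy chains that present peptides to T cells, fell in knockout fibroblasts and had higher knockout means in ES cells. H2-D1 read 12.24, 11.77 and 11.74 in knockout and 13.07, 12.97 and 12.87 in wild-type fibroblasts, and 10.47, 10.00 and 10.65 in knockout and 9.07, 9.64 and 9.62 in wild-type ES cells. H2-K1 read 11.06, 10.53 and 10.50 in knockout and 11.89, 11.89 and 11.60 in wild-type fibroblasts, and 9.82, 9.54 and 10.08 in knockout and 9.46, 9.30 and 9.41 in wild-type ES cells. For both genes all knockout arrays lay below all wild-type arrays in fibroblasts and above them in ES cells. Over all genes, the fibroblast groups did not overlap for 18.4% with the knockout higher and 12.5% with it lower. In ES cells these shares were 6.34% and 9.3%. They apply to every gene below whose groups are called apart, and choosing genes by a large difference favours such separation. The effects of H2-D1 were -1.05 (SE 0.12) and 0.93 (SE 0.22), a difference of -1.98 (SE 0.25, adjusted p = 0.00993). Those of H2-K1 were -1.10 (SE 0.14) and 0.42 (SE 0.16), a difference of -1.52 (SE 0.21, adjusted p = 0.00787). The H2-D1 call was lost without ES knockout replicate 3 (adjusted p = 0.056) or ES wild-type replicate 3 (adjusted p = 0.0519), and the H2-K1 call held without each array. The sources used here do not say whether the probes tell these genes apart, so they may not be independent observations.

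The RefSeq promoters of both genes (build GRCm38.p6, 250 bases before to 50 after the start site) are shown because the genes moved together. Capitals mark GGGATTCCC, the centre of the enhancer A element of class I genes that NF-κB proteins are known to bind, and TTTCACTT, the core of their interferon response element, in that order.
H2-D1: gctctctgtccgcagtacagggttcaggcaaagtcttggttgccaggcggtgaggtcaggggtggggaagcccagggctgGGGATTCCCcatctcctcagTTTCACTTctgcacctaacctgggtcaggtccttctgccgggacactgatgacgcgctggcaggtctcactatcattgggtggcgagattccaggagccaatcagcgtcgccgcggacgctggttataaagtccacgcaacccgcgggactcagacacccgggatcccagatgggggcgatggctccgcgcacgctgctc
H2-K1: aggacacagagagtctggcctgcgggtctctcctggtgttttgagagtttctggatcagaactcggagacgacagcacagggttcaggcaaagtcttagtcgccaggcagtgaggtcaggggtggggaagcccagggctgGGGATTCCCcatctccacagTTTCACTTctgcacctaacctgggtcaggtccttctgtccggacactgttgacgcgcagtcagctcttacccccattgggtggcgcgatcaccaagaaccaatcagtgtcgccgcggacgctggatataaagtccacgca
The H2-D1 sequence is chr17:35262844-35263143 on the plus strand, and the H2-K1 sequence, 1 of 2 listed for that gene, is chr17:34000298-34000597 on the minus strand. With the start site counted as 1 and no position 0, the first motif begins at -170 in H2-D1 and at -110 in H2-K1, and the second at -150 and -90. For H2-K1 the more upstream of the 2 listed start sites was used. The stretch tataaag lies before the start site in H2-D1 and after it in H2-K1, so positions in these genes are not comparable. Searched on both strands, GGGATTCCC stood in 116 of 32851 promoters searched (0.353%) and TTTCACTT in 526 (1.6%).

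Other genes of class I presentation, chosen after their values were seen, did not pass the test of the difference. B2m, the light chain of class I molecules, had effects of -0.46 in fibroblasts, where it fell, and 0.76 in ES cells (difference -1.22, SE 0.28, adjusted p = 0.128). Tap1, a subunit of the peptide transporter, had effects of -0.53, a called fall, and 0.33 (difference -0.86, adjusted p = 0.101), and the loading factor Tapbp -0.14 and 0.69 (difference -0.83, adjusted p = 0.06). Without both ES arrays numbered 1, B2m and Tapbp passed (adjusted p = 0.0288 for each). The immunoproteasome genes Psmb8 and Psmb9 fell in fibroblasts (-0.47 and -0.40), with ES effects of -0.25 and -0.03, and the class I regulator Nlrc5 fell as well (-0.38, with -0.29 in ES cells). The nonclassical gene H2-M3 had effects of -0.27 and -0.49. Other interferon-stimulated genes went different ways. Of 25 on a list of them, 1 had a positive and 0 a negative called difference, with a median difference of 0.02, or -0.10 without both ES arrays numbered 1. That 1 was Ifit2, an interferon-induced inhibitor of translation, whose effects were 0.40 (SE 0.09) and -0.40 (SE 0.12), a difference of 0.80 (SE 0.15, adjusted p = 0.0412). It read 9.22, 9.38 and 9.55 in knockout and 8.89, 8.96 and 9.10 in wild-type fibroblasts, and 6.07, 6.33 and 6.31 in knockout and 6.51, 6.70 and 6.71 in wild-type ES cells. The groups were thus apart in both cell types and in opposite order. Its call was lost without any 1 of 9 arrays, all but fibroblast knockout replicates 1 and 2 and fibroblast wild-type replicate 3 (adjusted p up to 0.158). Trim30a, an interferon-inducible TRIM gene outside the naming rule, fell in fibroblasts (-0.96) at 0.06 in ES cells, where it was dim (difference -1.02, adjusted p = 0.0412, lost without any 1 of 10 arrays, all but fibroblast knockout replicate 1 and ES knockout replicate 1).

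**Figure D2:**
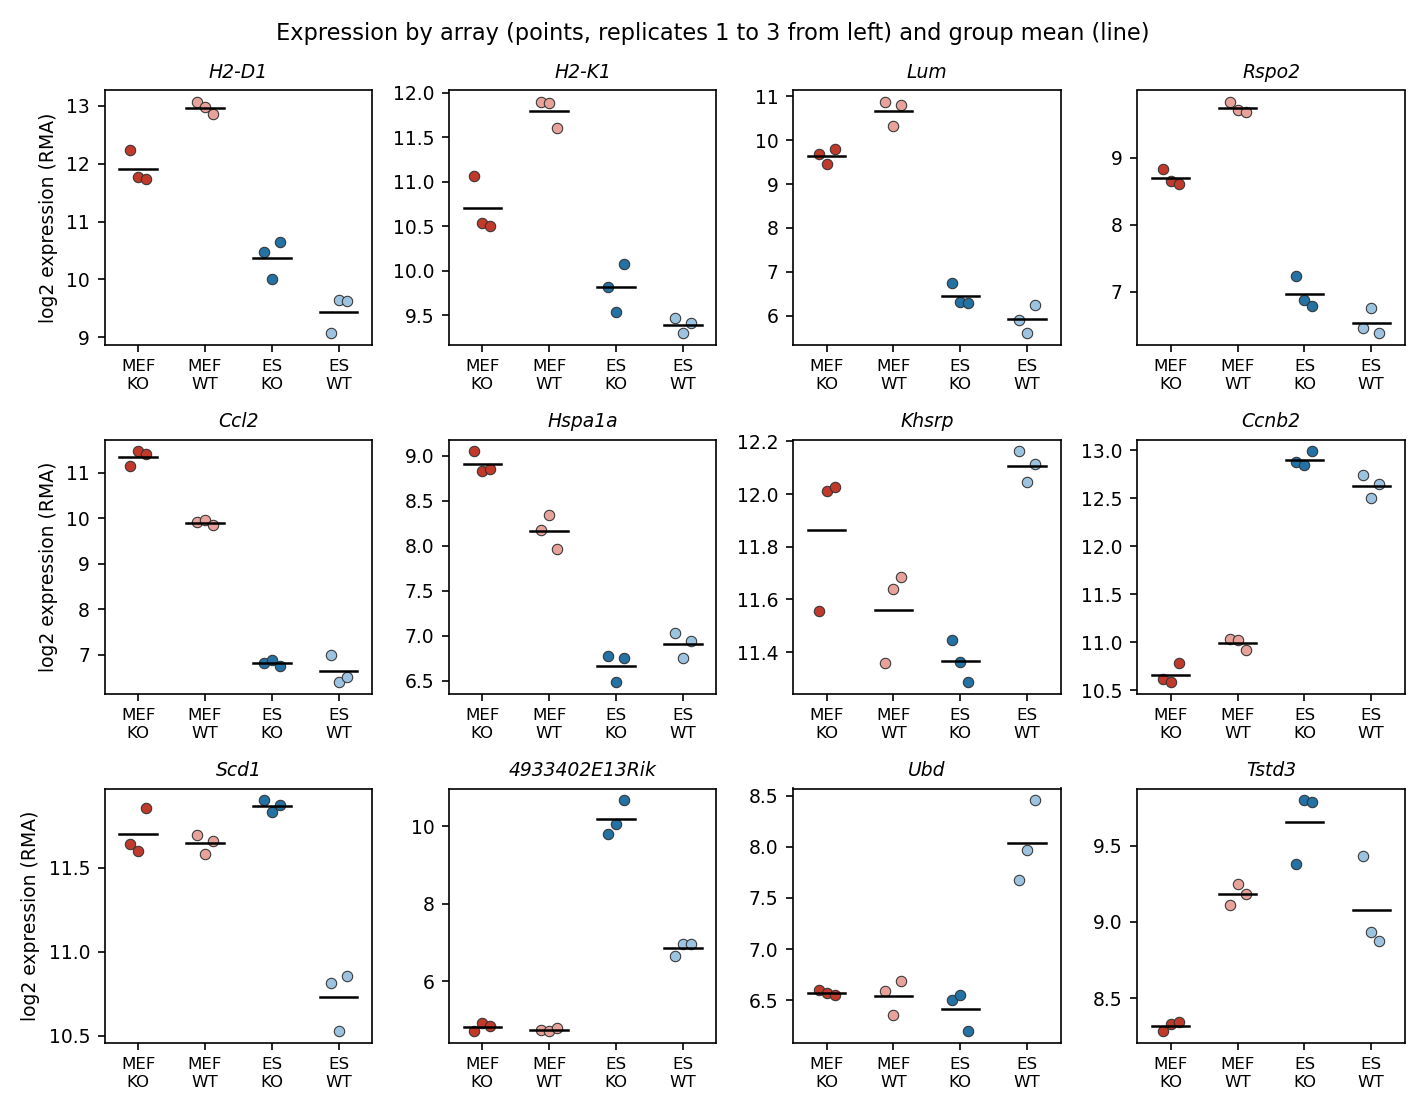
Log2 expression of 12 genes in each of the 12 arrays, by group (MEF, fibroblasts; ES, ES cells; KO, knockout; WT, wild type), with the group mean as a line and a vertical scale of its own for each gene. H2-D1 and H2-K1 are lower in knockout fibroblasts and higher in knockout ES cells, Scd1 and 4933402E13Rik are higher in knockout than in wild-type ES cells, and Ccl2 and Hspa1a are higher in knockout fibroblasts.

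Ly6a, which encodes the surface antigen Sca-1, showed the same opposite order. Its levels were 13.05, 13.08 and 13.28 in knockout and 13.83, 13.89 and 14.08 in wild-type fibroblasts, and 8.84, 9.72 and 9.25 in knockout and 8.40, 8.42 and 8.69 in wild-type ES cells. The effects were -0.80 (SE 0.08) and 0.77 (SE 0.22), a difference of -1.56 (SE 0.24, adjusted p = 0.0412), and the groups did not overlap in either cell type. The call was lost without any 1 of the ES arrays other than knockout replicate 1 (adjusted p up to 0.158).

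A larger group was marked by a fall in knockout fibroblasts. Among the 53 genes, 25 fell in fibroblasts, and 16 of these 25 were dim in ES cells. Of the 25, 21 had a higher knockout mean in ES cells (42.7% of all genes did), which the choice by the difference also favours. The collagen-binding proteoglycan gene Lum (lumican) read 9.69, 9.46 and 9.80 in knockout and 10.87, 10.33 and 10.80 in wild-type fibroblasts, and 6.74, 6.31 and 6.29 in knockout and 5.90, 5.60 and 6.24 in wild-type ES cells. The groups were apart in both cell types, though by little in ES cells, and the effects of -1.02 (SE 0.13) and 0.54 (SE 0.20) differed by -1.55 (SE 0.24, adjusted p = 0.0189). Rspo2, a secreted amplifier of Wnt signals, read 8.82, 8.65 and 8.61 in knockout and 9.83, 9.70 and 9.67 in wild-type fibroblasts, and 7.23, 6.87 and 6.79 in knockout and 6.46, 6.76 and 6.38 in wild-type ES cells. Its effects were -1.04 (SE 0.07) and 0.43 (SE 0.16), a difference of -1.47 (SE 0.17, adjusted p = 0.00993). Adamts5, an aggrecan-cleaving protease, read 8.96, 9.14 and 9.23 in knockout against 9.95, 9.83 and 10.01 in wild-type fibroblasts, an effect of -0.82, with 0.02 in ES cells (difference -0.84, adjusted p = 0.0243). The call for Lum was lost without any 1 of ES knockout replicates 2 and 3 and ES wild-type replicates 1 and 2 (adjusted p up to 0.0623). The call for Rspo2 was lost without any 1 of ES knockout replicate 2 and ES wild-type replicates 1 and 3 (up to 0.0682), and that for Adamts5 without any 1 of the same 4 arrays as Lum (up to 0.129). On the list of 27 fibrillar matrix genes, Lum was the only 1 with a called difference, and the median difference was 0.03. Leaving out both ES arrays numbered 1, 3 of the 27 were called and the median was 0.22. With 1 spread shared by 18 arrays 3 were called. Over all 17091 genes these fits called 128 and 170. On that list 5 genes rose in fibroblasts (7.11% of all genes did) and 6 fell (4.93% did). The matrix protein genes Matn2 (effects -1.15 and 0.27) and Dcn (-1.22 and -0.13) fell in fibroblasts, and the collagen VI gene Col6a3 rose there (0.48, with -0.36 in ES cells), but their differences did not pass (adjusted p = 0.06 for Matn2, 0.14 for Dcn and 0.0615 for Col6a3). Of 17 matrix proteases and inhibitors Adamts5 alone was called, and the median difference was 0.15, or 0.30 without both ES arrays numbered 1, where Adamts5 was not called (adjusted p = 0.0776).

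Agtr2, the type 2 receptor of angiotensin II and outside the rule for named genes, read 5.74, 6.13 and 6.34 in knockout and 7.69, 8.13 and 8.19 in wild-type fibroblasts, and 4.62, 4.84 and 5.16 in knockout and 5.0, 4.95 and 5.07 in wild-type ES cells. Its effect of -1.94 (SE 0.16) in fibroblasts and -0.13 (SE 0.15) in ES cells gave a difference of -1.81 (SE 0.22, adjusted p = 0.00254), a call that held without each array. Cd55, which restrains complement on the cell surface, read 6.93, 6.95 and 7.18 in knockout and 8.60, 8.47 and 8.58 in wild-type fibroblasts. In ES cells it read 6.81, 6.91 and 7.85 in knockout and 6.88, 6.74 and 7.01 in wild-type arrays, where the groups overlapped. The difference was -1.84 (SE 0.28, adjusted p = 0.0427), lost without any 1 of ES knockout replicate 2 and the 3 ES wild-type replicates (adjusted p up to 0.16). C1qtnf3, a secreted protein of the C1q and TNF-related family, had effects of -1.58 and 0.07 (difference -1.65, adjusted p = 0.0463). Its knockout fibroblast arrays spread widely, at 9.36, 8.58 and 8.03 against 10.27, 10.55 and 9.89 in wild type, and the call was lost without any 1 of 9 arrays, all but fibroblast knockout replicate 1, fibroblast wild-type replicate 3 and ES knockout replicate 1 (up to 0.118).

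A further set outside the naming rule fell in fibroblasts with ES effects between -0.10 and 0.21. It held Kitl, the ligand of the receptor KIT (-1.02 in fibroblasts, difference -0.92), and Tnfrsf11b, or osteoprotegerin, the decoy receptor for RANK ligand (-0.99, difference -0.97). It also held Csgalnact1, which starts chondroitin sulfate chains (-0.85, difference -0.92), the sulfatase gene Arsj (-0.84, difference -0.88) and the single-stranded DNA-binding protein gene Nabp1 (-0.76, difference -0.95). The others were Ptgs1, or cyclooxygenase 1 (-0.74, difference -0.81), the ephrin receptor gene Epha3 (-0.66, difference -0.75) and Fbxl5, an iron-sensing ubiquitin ligase subunit (-0.42, difference -0.63). Their adjusted p-values lay between 0.0189 for Nabp1 and 0.0463 for Fbxl5. Each of these 8 calls was lost without at least 4 of the 12 arrays, the ES knockout replicates 2 and 3 among them for every gene, with adjusted p up to 0.171.

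Among 35 Hox genes, which set position along the body axis, the median difference was 0.02. Of the 35 genes, 2 had a called negative difference and 0 a positive one, against 0.205% and 0.105% of all genes. Both sit in the HoxC cluster on chromosome 15. Hoxc8 read 9.47, 9.19 and 8.98 in knockout and 10.04, 10.10 and 10.00 in wild-type fibroblasts, and lay between 4.90 and 5.20 in all ES arrays. Hoxc10 read 8.58, 8.61 and 8.55 in knockout and 9.16, 9.39 and 9.35 in wild-type fibroblasts, and 6.39, 6.07 and 6.03 in knockout and 5.73, 5.98 and 5.83 in wild-type ES cells. The differences were -0.86 (SE 0.15, adjusted p = 0.0276) for Hoxc8 and -1.03 (SE 0.15, adjusted p = 0.021) for Hoxc10, and both genes were dim in ES cells. Hoxa10 fell by 0.85 in fibroblasts at 0.09 in ES cells and did not pass (adjusted p = 0.0619). Both calls were lost without any 1 of the ES arrays other than knockout replicate 1, and that for Hoxc8 also without fibroblast wild-type replicate 2 (adjusted p up to 0.111). The Hoxc8 call was also lost without both ES arrays numbered 1 (adjusted p = 0.0655).

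Of 23 chemokine and cytokine genes, 8 rose and 2 fell in knockout fibroblasts, where 7.11% of all genes rose and 4.93% fell. Ccl2, which attracts monocytes, read 11.16, 11.48 and 11.42 in knockout and 9.92, 9.96 and 9.85 in wild-type fibroblasts, and 6.82, 6.89 and 6.75 in knockout and 7.0, 6.4 and 6.51 in wild-type ES cells. It rose by 1.44 (SE 0.08) in fibroblasts, where no array of the groups overlapped, against 0.18 (SE 0.17) in ES cells, a difference of 1.26 (SE 0.18, adjusted p = 0.0226). Cxcl3, which attracts neutrophils, read 5.05, 4.88 and 5.32 in knockout and 7.01, 6.59 and 7.34 in wild-type fibroblasts, and 4.94, 4.78 and 4.64 in knockout and 4.49, 5.13 and 5.17 in wild-type ES cells. Its effects were -1.90 (SE 0.17) and -0.14 (SE 0.19), a difference of -1.76 (SE 0.26, adjusted p = 0.00993), at signals that were dim in both cell types. These were the 2 called differences of the 23, against 0.31% of all genes. The median difference of the list was 0.16. With both ES arrays numbered 1 left out, 5 of the 23 were called, and 128 of all 17091 genes. Csf1, the macrophage growth factor (0.62 in fibroblasts and -0.06 in ES cells), and Ccl7 (0.72 and -0.17) rose in fibroblasts, and their differences did not pass (adjusted p = 0.0651 and 0.0784). The Ccl2 call was lost without any 1 of ES knockout replicates 2 and 3 and ES wild-type replicate 3 (adjusted p up to 0.108), and the Cxcl3 call without ES knockout replicate 2 (0.0574). Macrophage markers, 7 genes, averaged 7.69 to 8.26 in knockout and 7.65 to 8.09 in wild-type fibroblast arrays, and none of the 7 was called in fibroblasts. Their part in the chemokine result was not tested.

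Apart from Ccl2, 10 genes with a positive called difference rose in fibroblasts. The inducible HSP70 chaperone genes Hspa1a and Hspa1b, adjacent on chromosome 17, had higher levels in knockout fibroblasts and lower means in knockout ES cells. Hspa1a read 9.05, 8.83 and 8.85 in knockout and 8.18, 8.34 and 7.96 in wild-type fibroblasts, and 6.77, 6.48 and 6.75 in knockout and 7.04, 6.75 and 6.95 in wild-type ES cells. Hspa1b read 11.55, 11.27 and 11.36 in knockout and 11.00, 11.18 and 10.98 in wild-type fibroblasts, and 8.46, 8.19 and 8.16 in knockout and 8.84, 8.82 and 8.65 in wild-type ES cells. The differences were 0.99 (SE 0.16, adjusted p = 0.021) for Hspa1a and 0.84 (SE 0.15, adjusted p = 0.0427) for Hspa1b. These copies are nearly identical in sequence, so probes may not tell them apart and they may be a single observation. The Hspa1a call was lost without any 1 of ES knockout replicates 2 and 3 and ES wild-type replicates 1 and 3 (adjusted p up to 0.109). The Hspa1b call was lost without any 1 of 6 arrays, fibroblast wild-type replicate 1 and the ES arrays other than knockout replicate 1 (up to 0.165).

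Plxnd1, a receptor for semaphorins, had effects of 0.55 and -0.42 (difference 0.96, adjusted p = 0.0494), with the groups apart in opposite order in the cell types. Cbr2, carbonyl reductase 2, had effects of 0.73 and -0.32 (difference 1.04, adjusted p = 0.0284), also without overlap in either cell type. Pdzd4, a PDZ domain gene on chromosome X, had effects of 0.36 and -0.83 (difference 1.19, adjusted p = 0.013), and here the ES cell part was the larger. It read 7.71, 8.15 and 7.97 in knockout and 7.63, 7.6 and 7.52 in wild-type fibroblasts, and 9.33, 9.78 and 9.46 in knockout and 10.35, 10.40 and 10.30 in wild-type ES cells. Outside the naming rule were Lce1f, a late cornified envelope gene (0.77 and -0.27, difference 1.05), Cap2, an actin regulator (0.50 and -0.21, difference 0.71), and the glycolytic enzyme gene Eno2 (0.29 and -0.46, difference 0.75), with adjusted p between 0.0189 and 0.0427. Calls of these 6 genes were each lost without at least 4 of the 12 arrays (adjusted p up to 0.182), ES knockout replicate 3 and the ES wild-type replicates 1 and 3 among them for every gene.

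G2/M genes fell in knockout fibroblasts, while 16 of 24 had a higher knockout mean in ES cells (42.7% of all genes did). The mean level over 24 G2/M and mitosis genes was 9.89, 9.85 and 10.01 in knockout and 10.17, 10.27 and 10.22 in wild-type fibroblasts, and 11.43, 11.56 and 11.44 in knockout and 11.46, 11.45 and 11.36 in wild-type ES cells. Knockout and wild-type arrays were thus apart in fibroblasts and overlapped in ES cells. Of the 24 genes, 18 fell in fibroblasts (4.93% of all genes did) and 0 rose (7.11% did). All 24 had a lower knockout mean there (45.6% of all genes did). The median effect was -0.34 in fibroblasts and 0.06 in ES cells, against 0.01 and -0.03 over all genes. The difference was called for 2 of the 24, both negative, against 0.205% of all genes. At an unadjusted p below 0.05, 14 had a negative difference, where 5.7% of all genes did. The median difference was -0.34, against 0.05 over all genes. Prc1, which bundles microtubules at the spindle midzone, read 10.67, 10.65 and 10.71 in knockout and 11.10, 11.19 and 11.11 in wild-type fibroblasts, and 11.66, 11.77 and 11.61 in knockout and 11.57, 11.49 and 11.40 in wild-type ES cells. Ccnb2, a mitotic cyclin, read 10.61, 10.58 and 10.78 in knockout and 11.04, 11.03 and 10.92 in wild-type fibroblasts, and 12.88, 12.85 and 12.99 in knockout and 12.74, 12.51 and 12.65 in wild-type ES cells. In both genes every knockout array lay below the wild-type arrays in fibroblasts and above them in ES cells. Prc1 had effects of -0.46 (SE 0.05) and 0.19 (SE 0.10), a difference of -0.65 (SE 0.11, adjusted p = 0.048). Ccnb2 had effects of -0.34 (SE 0.06) and 0.27 (SE 0.10), a difference of -0.61 (SE 0.12, adjusted p = 0.0494). The mitotic kinase genes Aurka (-0.38 and 0.25, adjusted p of the difference 0.0595) and Plk1 (-0.45 and 0.11, adjusted p = 0.0761) and the ubiquitin-conjugating enzyme gene Ube2c (-0.29 and 0.13, adjusted p = 0.0761) fell in fibroblasts without a called difference.

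Among 27 G1/S targets of E2F, 10 fell in fibroblasts (4.93% of all genes did) and 0 rose (7.11% did). Here the ES cell median was also below 0, at -0.13 against -0.16 in fibroblasts, and the median difference was -0.04. The difference was called for 1 gene, Ccna2, the cyclin of S phase and G2. It read 11.16, 11.12 and 11.30 in knockout and 11.54, 11.63 and 11.63 in wild-type fibroblasts, and 12.72, 12.76 and 12.72 in knockout and 12.56, 12.51 and 12.65 in wild-type ES cells. The effects of -0.41 (SE 0.06) and 0.16 (SE 0.08) differed by -0.57 (SE 0.10, adjusted p = 0.0397). Ccne2, cyclin E2, fell by 1.28 in fibroblasts at 0.04 in ES cells (difference -1.32, adjusted p = 0.06), and Rrm1, a subunit of ribonucleotide reductase, had effects of -0.40 and 0.10 (adjusted p = 0.0761). Of 7 CDK inhibitors none was called, with a median difference of -0.39. The calls for Prc1, Ccnb2 and Ccna2 were each lost without any 1 of the 6 ES arrays and 2 or 3 fibroblast arrays, fibroblast knockout replicate 2 and wild-type replicate 2 for all and wild-type replicate 1 for Ccnb2 (adjusted p up to 0.198). Without both ES arrays numbered 1 none of these 3 was called, at differences of -0.70, -0.68 and -0.57 (adjusted p = 0.068, 0.0518 and 0.0768).

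The RefSeq promoters of Ccnb2 and Prc1 (build GRCm38.p6) are shown since mitotic genes are known to share a pair of elements, the CCAAT box bound by NF-Y and the CHR, TTTGAA, through which the DREAM complex acts. Capitals mark both motifs.
Ccnb2: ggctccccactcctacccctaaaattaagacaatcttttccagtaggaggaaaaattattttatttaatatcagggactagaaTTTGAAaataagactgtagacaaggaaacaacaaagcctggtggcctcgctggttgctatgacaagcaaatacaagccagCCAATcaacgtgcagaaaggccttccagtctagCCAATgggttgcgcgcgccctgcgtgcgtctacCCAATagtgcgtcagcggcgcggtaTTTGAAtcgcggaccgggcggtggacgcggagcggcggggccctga
Prc1: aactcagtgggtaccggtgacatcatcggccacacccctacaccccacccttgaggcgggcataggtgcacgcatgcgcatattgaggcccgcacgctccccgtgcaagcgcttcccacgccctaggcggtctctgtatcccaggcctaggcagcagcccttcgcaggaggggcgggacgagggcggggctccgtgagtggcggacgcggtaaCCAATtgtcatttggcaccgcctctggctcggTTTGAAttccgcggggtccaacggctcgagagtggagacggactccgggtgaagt
The Ccnb2 sequence is chr9:70421505-70421804 on the minus strand and the Prc1 sequence, 1 of 2 listed for that gene, chr7:80294201-80294500 on the plus strand. In Ccnb2, CCAAT begins at -87, -54 and -21 and TTTGAA at -167 and 5, counted as for H2-D1. In Prc1, CCAAT begins at -37 and TTTGAA at -5. Searched on both strands, CCAAT stood in 12289 of 32851 promoters searched (37.41%) and TTTGAA in 5878 (17.89%). Of the 19 G2/M genes with a promoter in the table, 17 had CCAAT and 13 had TTTGAA. A gene was counted if any of its listed promoters held the motif, whereas the percentages are shares of single promoters. The counts and the percentages are therefore in unlike units.

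**Figure D3:**
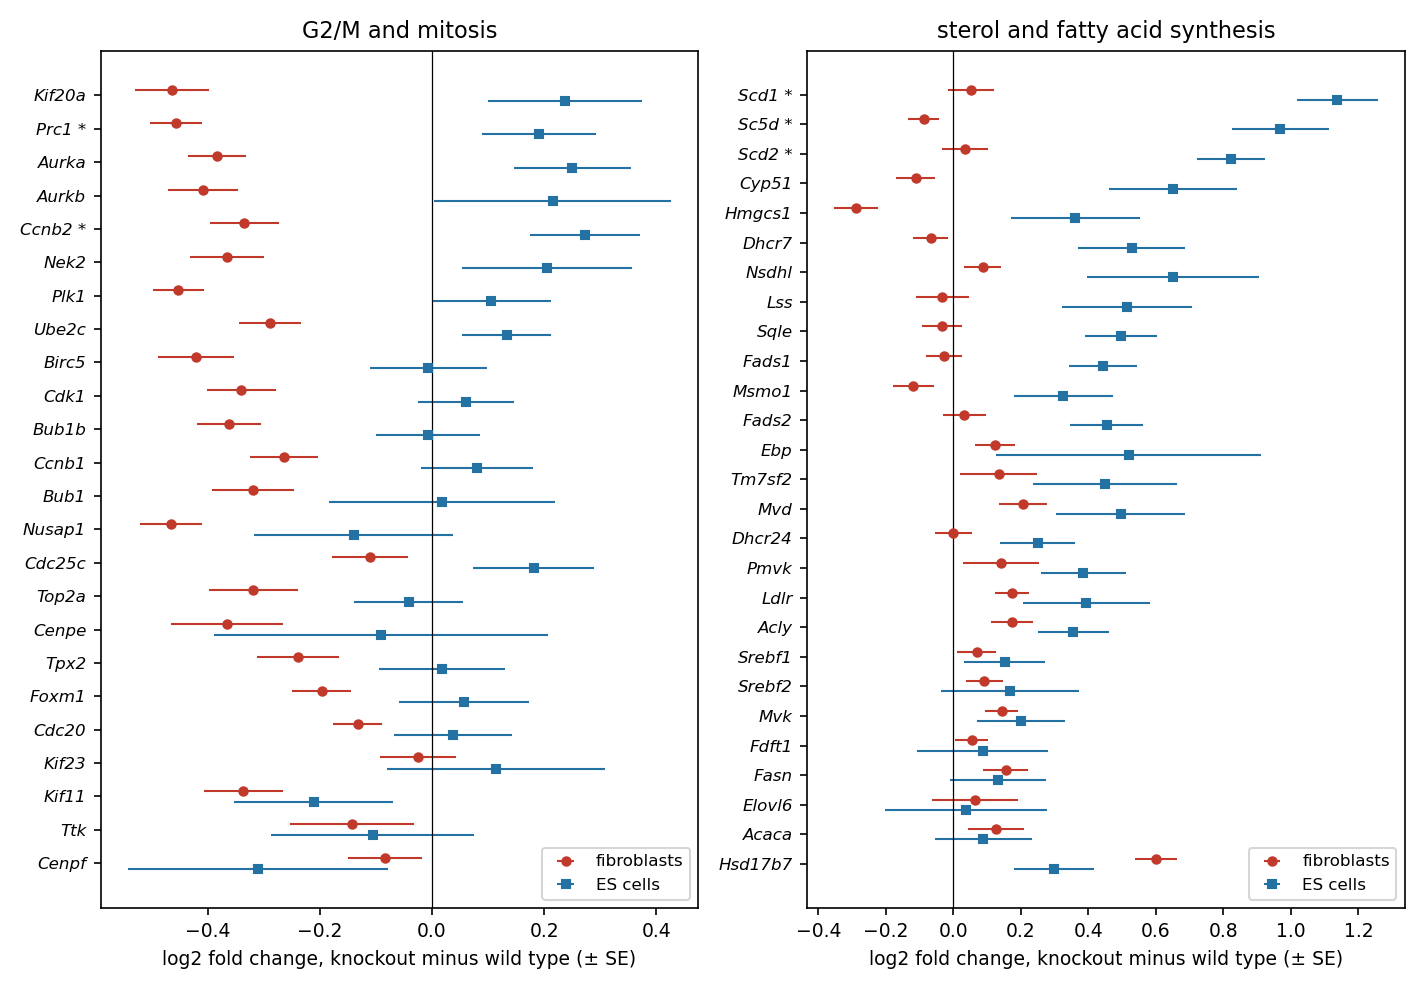
Knockout effects (log2 fold change, knockout minus wild type, with the SE) of 24 G2/M and mitosis genes on the left and 27 of the 28 sterol and fatty acid synthesis genes on the right, in fibroblasts (circles) and ES cells (squares); a star marks a called difference. G2/M genes lie below 0 in fibroblasts with a median of -0.34, and sterol genes lie above 0 in ES cells, where the median of the 28 is 0.42.

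Genes of lipid synthesis had higher knockout means in ES cells. Averaged over 28 sterol and fatty acid synthesis genes, the level was 10.73, 10.79 and 10.94 in knockout and 10.77, 10.74 and 10.78 in wild-type fibroblasts, and 10.97, 10.98 and 10.98 in knockout and 10.65, 10.44 and 10.58 in wild-type ES cells. The genotypes overlapped in fibroblasts and were apart in ES cells. All 28 genes had a higher knockout mean in ES cells, where 42.7% of all genes did, and for 15 the ES arrays did not overlap (6.34% of all genes, higher). None was called in ES cells alone. In fibroblasts 1 rose, Hsd17b7 (0.60), and 1 fell, Hmgcs1 (-0.29), both enzymes of cholesterol synthesis. The median difference was -0.35, and 3 of the 28 had a called negative difference (0.205% of all genes did). Scd1 and Scd2, adjacent stearoyl-CoA desaturase genes on chromosome 19 that make monounsaturated fatty acids, were among them. Scd1 read 11.64, 11.60 and 11.86 in knockout and 11.70, 11.58 and 11.66 in wild-type fibroblasts, and 11.90, 11.83 and 11.87 in knockout and 10.82, 10.53 and 10.86 in wild-type ES cells. Its effects were 0.05 (SE 0.07) and 1.14 (SE 0.12), so the difference of -1.08 (SE 0.14, adjusted p = 0.00993) came from the ES cells. Scd2 read 12.87, 12.94 and 13.13 in knockout and 13.00, 12.86 and 12.97 in wild-type fibroblasts, and 12.78, 12.74 and 12.89 in knockout and 12.07, 11.84 and 12.03 in wild-type ES cells (difference -0.79, SE 0.12, adjusted p = 0.02). Sc5d, which makes 7-dehydrocholesterol, read 11.34, 11.31 and 11.42 in knockout and 11.43, 11.46 and 11.44 in wild-type fibroblasts, and 9.37, 9.59 and 9.54 in knockout and 8.77, 8.47 and 8.36 in wild-type ES cells (difference -1.06, SE 0.15, adjusted p = 0.0356). Sqle, squalene epoxidase, had effects of -0.03 and 0.50 and did not pass (adjusted p = 0.0896). Each of the 3 calls was lost without ES knockout replicate 2, ES knockout replicate 3 or ES wild-type replicate 3, those of Scd2 and Sc5d also without ES wild-type replicate 2 (adjusted p up to 0.158). Without both ES arrays numbered 1, 4 of the 28 were called, and 128 of all 17091 genes. The median difference of the list was then -0.41.

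Counting these 3, 17 of the 53 genes had no called fibroblast effect, 10 with a higher and 7 with a lower knockout mean in ES cells, and 11 of these 17 were dim in fibroblasts. The largest difference of all was that of 4933402E13Rik on chromosome X, a gene with no role given in the table used. It read 4.72, 4.91 and 4.84 in knockout and 4.73, 4.70 and 4.79 in wild-type fibroblasts, near the floor of the array, and 9.81, 10.06 and 10.68 in knockout and 6.64, 6.96 and 6.96 in wild-type ES cells. The ES effect of 3.33 (SE 0.23), a 10.0-fold higher level, was called by itself, and the difference was -3.25 (SE 0.24, adjusted p = 0.00254). Fthl17a, a ferritin heavy chain-like gene also on chromosome X, read 6.81, 6.93 and 6.70 in knockout and 6.78, 6.85 and 6.67 in wild-type fibroblasts, and 8.68, 8.78 and 9.26 in knockout and 7.35, 7.20 and 7.39 in wild-type ES cells. Its ES effect was 1.59 (SE 0.17) and the difference -1.54 (SE 0.19, adjusted p = 0.00993). The X-linked homeobox genes Rhox5, Rhox6 and Rhox9, chosen after their values were seen, had ES effects of 1.65, 2.28 and 1.58 and fibroblast effects of 0.16, 0.15 and -0.02. Their ES arrays spread widely and the differences did not pass (adjusted p = 0.33, 0.286 and 0.225). Without both ES arrays numbered 1, which carried the Y-linked signal, the differences of 4933402E13Rik and Fthl17a were -3.33 and -1.68 (adjusted p = 0.0016 and 0.0141). The Fthl17a call was lost without any 1 of ES knockout replicate 2 and the 3 ES wild-type replicates (up to 0.0769).

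Gng10, a γ subunit of heterotrimeric G proteins, was expressed in both cell types. It read 11.85, 11.74 and 11.46 in knockout and 11.88, 12.02 and 11.54 in wild-type fibroblasts, and 10.08, 10.28 and 10.24 in knockout and 9.16, 9.10 and 9.03 in wild-type ES cells. Its difference of -1.23 (SE 0.17, adjusted p = 0.00687) held without each array. Dok2, an adaptor of tyrosine kinase signalling, had effects of -0.07 and 1.09 (difference -1.16, adjusted p = 0.0288). Sh3tc1, outside the naming rule, had effects of -0.07 and 0.74 (difference -0.82, adjusted p = 0.0494). The Dok2 call was lost without any 1 of the ES arrays other than knockout replicate 1 (up to 0.13) and that of Sh3tc1 without any 1 of 10 arrays, all but fibroblast knockout replicates 1 and 2 (up to 0.181).

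Of 3 neighbouring epidermal genes on chromosome 7, Dmkn and Krtdap had a called difference and Sbsn did not. Krtdap read 6.41, 6.14 and 6.28 in knockout and 6.31, 6.34 and 6.42 in wild-type fibroblasts, and 8.76, 8.57 and 8.89 in knockout and 7.64, 7.20 and 7.91 in wild-type ES cells (difference -1.24, SE 0.21, adjusted p = 0.048). Dmkn, or dermokine, outside the naming rule, read 6.16, 6.37 and 6.16 in knockout and 6.26, 6.10 and 6.0 in wild-type fibroblasts, and 7.44, 7.39 and 7.71 in knockout and 6.30, 6.32 and 6.66 in wild-type ES cells (difference -0.97, SE 0.17, adjusted p = 0.0412). Dmkn was dim in both cell types, and Krtdap in fibroblasts. Sbsn, or suprabasin, rose in fibroblasts (0.80) and had an effect of 0.65 in ES cells, with a difference of 0.15 (95% confidence interval -0.36 to 0.67). The Dmkn and Krtdap calls were lost without both ES arrays numbered 1 (adjusted p = 0.077 and 0.0893), and without any 1 of 6 and 7 single arrays (adjusted p up to 0.158 and 0.181). Those arrays were, for Krtdap, all 6 ES arrays and fibroblast knockout replicate 2, and for Dmkn the ES arrays other than knockout replicate 1 and fibroblast wild-type replicate 1.

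Genes with a lower knockout mean in ES cells included Khsrp, an RNA-binding regulator of splicing and mRNA decay. It read 11.55, 12.01 and 12.03 in knockout and 11.36, 11.64 and 11.68 in wild-type fibroblasts, and 11.45, 11.36 and 11.29 in knockout and 12.16, 12.04 and 12.12 in wild-type ES cells. The ES arrays did not overlap and the fibroblast arrays did. The effects of 0.30 (SE 0.13) and -0.74 (SE 0.10) differed by 1.05 (SE 0.16, adjusted p = 0.00993), a call that held without each array. Ubd, the ubiquitin-like protein FAT10 encoded within the extended MHC and outside the naming rule, read 6.6, 6.57 and 6.55 in knockout and 6.59, 6.35 and 6.68 in wild-type fibroblasts, and 6.50, 6.55 and 6.20 in knockout and 7.68, 7.96 and 8.46 in wild-type ES cells. Knockout ES cells were thus at the level of fibroblasts, and the difference was 1.65 (SE 0.23, adjusted p = 0.021). Arrdc4, an α-arrestin gene, had effects of 0.13 and -0.67 (difference 0.80, adjusted p = 0.048). Outside the rule, the glycosyltransferase gene B3gnt4 (difference 0.73), Tmem169 (0.76), the histone variant gene H2al2a (0.92) and Dlx1as (0.89), which lies antisense to Dlx1, had ES effects from -0.71 to -0.49 at signals that were dim in both cell types (adjusted p from 0.0427 to 0.0494). The sources used here do not say whether the probes tell Dlx1as from Dlx1. The Ubd call was lost without any 1 of ES knockout replicates 2 and 3 and ES wild-type replicate 2 (up to 0.118). The calls of Arrdc4 and the 4 dim genes were lost without at least 7 of the 12 arrays each, ES knockout replicates 2 and 3 and the 3 ES wild-type replicates among them (up to 0.181).

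Tstd3, a gene of the thiosulfate sulfurtransferase-like family, is the direct neighbour of Ccnc on chromosome 4, and their gene models overlap in GRCm38.p6. It read 8.28, 8.33 and 8.34 in knockout and 9.11, 9.25 and 9.18 in wild-type fibroblasts, and 9.38, 9.80 and 9.79 in knockout and 9.43, 8.93 and 8.87 in wild-type ES cells. The fibroblast groups were apart, and in ES cells 1 wild-type array lay within the knockout range. The effects were -0.86 (SE 0.06) and 0.58 (SE 0.19), a difference of -1.44 (SE 0.20, adjusted p = 0.0347). The call was lost without any 1 of ES knockout replicates 2 and 3 and ES wild-type replicates 2 and 3 (adjusted p up to 0.158), and without both ES arrays numbered 1 it was -1.75 (adjusted p = 0.002). Usp45, a deubiquitinase gene next to Tstd3, had effects of 0.17 and 0.14 (difference 0.03, 95% confidence interval -0.36 to 0.43).

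Effects in the same direction with an unadjusted p below 0.05 in each cell type were seen for 254 genes (1.49%), 195 higher and 59 lower, and 0 of them had a called difference. In the opposite direction there were 160 genes (0.936%). After Ccnc, the same-direction genes with the largest smaller effect were Gap43, a growth cone protein (-1.20 in fibroblasts and -0.80 in ES cells), the transcription factor gene Klf2 (-1.05 and -0.74) and Plaur, the urokinase receptor (0.74 and 0.87). Next came Sbsn, Krt7, a keratin of simple epithelia (0.59 and 1.5), Cd38, an NAD-consuming surface enzyme (0.58 and 0.67), and Pdgfa, a ligand of the PDGF receptors (0.70 and 0.56). Their differences had 95% confidence intervals from -0.19 to 0.46 for Pdgfa, the narrowest, to -1.94 to 0.13 for Krt7, the widest, so the data allow unequal effects of such sizes. For Plaur the interval was -0.77 to 0.51, for Cd38 -0.54 to 0.37, for Gap43 -0.90 to 0.11 and for Klf2 -0.82 to 0.21.

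Several lists had no gene with a called difference. Of the 7 Mediator kinase module genes none passed. At an unadjusted p below 0.05, 2 of the 7 had a positive and 1 a negative difference (7.4% and 5.7% of all genes did). Cdk8 rose in fibroblasts (0.37, with -0.09 in ES cells, adjusted p of the difference 0.171). Cdk19, Med12 and Med13 had differences between -0.01 and 0.07. The 25 core Mediator genes had a median difference of 0.04. Of 15 smooth muscle genes 8 rose in fibroblasts (7.11% of all genes did), and the median effect was 0.36 there and 0.15 in ES cells. The smooth muscle myosin gene Myh11 came closest (0.93 and -0.15, adjusted p of the difference 0.0896). The 15 simple epithelial genes went the other way in size, with median effects of 0.09 in fibroblasts and 0.71 in ES cells. In ES cells 14 of the 15 had a higher knockout mean, where 42.7% of all genes did. For 21 genes of ATF4 and the unfolded protein response the medians were -0.08 and -0.34, with 18 of the 21 means lower in ES cells, where 57.3% of all genes had a lower knockout mean. The ES median of this list was -0.22 without both ES arrays numbered 1, and its median difference was 0.07, against 0.25 with them. For 26 pluripotency genes they were -0.02 and -0.25. The 17 Wnt targets had medians of 0.04 and -0.21, and Lgr5, a receptor for R-spondins, came closest (-0.82 and 0.00, adjusted p of the difference 0.0745). Among 27 immediate early and serum response genes Egr2 (0.99 and -0.05, adjusted p = 0.0651) and Egr1 (-0.32 and -2.14, adjusted p = 0.0728) came closest. The 19 extraembryonic endoderm genes had a median difference of -0.86, which was -0.11 without both ES arrays numbered 1, the pair that held the knockout array with high endoderm markers. Lists of targets of NRF2 (17 genes), p53 (23), TGF-β (18) and Notch (17) and of Notch components (24), imprinted genes (20), glycolysis genes (17), PDGF and FGF genes (25), germline genes (14) and primed epiblast genes (16) had median differences between -0.14 and 0.23. These lay, without both ES arrays numbered 1, between -0.32, for the germline list, which was at -0.05 with them, and 0.26, for the primed epiblast list.

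**Figure D4:**
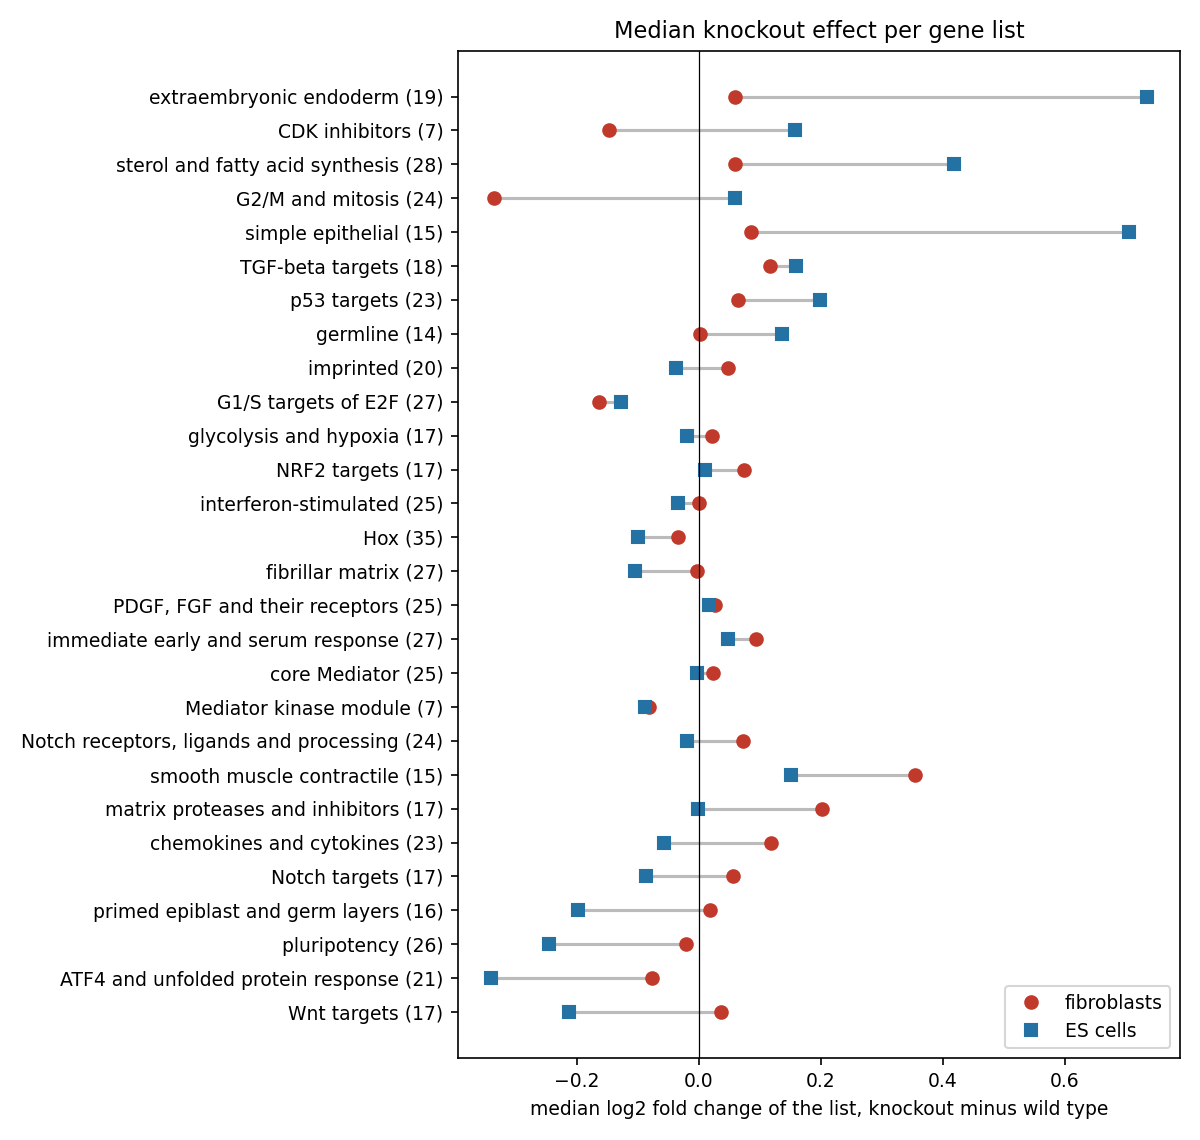
Median knockout effect (log2 fold change, knockout minus wild type) of each of 28 gene lists in fibroblasts (circles) and ES cells (squares), with the number of measured genes in parentheses, ordered by the median difference. The G2/M list lies at -0.34 in fibroblasts and 0.06 in ES cells, the sterol list at 0.06 and 0.42, and the extraembryonic endoderm list, whose median difference was -0.11 without both ES arrays numbered 1, at 0.06 and 0.74.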

How the data were processed

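RNA of 18 samples was measured on single-colour arrays, of which the 12 of fibroblasts and ES cells are used here. The values are on the log2 scale, deposited by the authors after RMA (robust multi-array average), as the submitters' processing notes name it. Neither its version, nor the array type, nor which arrays were normalized with each other is given in the sources used here. Because RMA equalises the distributions of arrays, a shift common to most genes would be lost, and fold changes of dim genes are compressed.

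A single symbol in RefSeq's gene table (GRCm38.p6) could be given to 22560 of 24121 transcript probe sets, which left 17091 genes. For 3432 genes with several probe sets the 1 with the highest mean over the 18 arrays was used, and 116 genes shared all values with another gene, none of them among the 53 called. limma 3.58.1 under R 4.3.3 (lmFit, then eBayes with trend) was run apart on the 6 arrays of each cell type. The standard error of the difference is the root of the summed squared moderated standard errors, the degrees of freedom follow Satterthwaite, and p-values are 2-sided with Benjamini-Hochberg adjustment over all genes. On data simulated for this difference with 17091 genes, 16%, 84%, 96% and 98% of true differences of 0.5, 1, 1.5 and 2 were recovered. The simulated noise was normal and independent between genes and arrays, with the moderated spread of each gene per cell type. It held no outlying array such as ES knockout replicate 1, so recovery in the data may be lower. In the same simulation 16 unchanged genes were called, and 5.68% of unchanged genes had an unadjusted p below 0.05. Few genes were changed there. The 16 were thus a larger share of the simulated calls than the adjusted threshold of 0.05 allows, so the test was lenient in that simulation. Plots come from matplotlib 3.10.9 and Python 3.11.15. Arrays give no read depth, and 3 arrays per group limit the precision. Promoters of chromosome 18 were not searched.

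The comparison, the gene lists and the rules were chosen with earlier results of these data known, so none of the lists is independent support. The rule for named genes takes Ccnc; the 15 largest called differences in each direction among genes brighter than the median gene; up to 8 called genes with opposite effects and up to 8 genes with effects in the same direction; and, per list, up to 5 genes by smallest p. It names 223 genes, of which the text uses some, selected with their values known. Genes outside the rule are marked, except Hsd17b7, Hmgcs1, Usp45, Med12 and Med13, which were also chosen with their values known. The analysis reported did not pair arrays. For the replicate block in fibroblasts only, same-numbered arrays were taken as paired on the evidence of the correlations given above, and not of the labels. That setting did not pair the ES arrays, whose same-numbered r were 0.374, 0.318 and 0.081. Differently numbered ES arrays had r from -0.378 to 0.196. Alternatives were shared spreads, array weights, the replicate block, other priors, probe set rules, scalings, a filter on dim genes and each array left out. A few single-gene results are not reported here, though all counts and medians include every gene.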

Additional observations from a re-analysis of the deposited data

Results flagged for a closer look

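The 52 genes below, of 53 called, were singled out because the knockout effect differed between fibroblasts and ES cells by the test of the difference itself (limma, adjusted p below 0.05). Values are fibroblast effect minus ES cell effect on the log2 scale. MHC class I and other surface genes were at -1.98 for H2-D1, -1.52 for H2-K1, -1.56 for Ly6a, -1.84 for Cd55, -1.81 for Agtr2 and -0.75 for Epha3. Matrix and secreted factor genes were at -1.55 for Lum, -1.65 for C1qtnf3, -1.47 for Rspo2, -1.76 for Cxcl3, -0.84 for Adamts5, -0.92 for Kitl and -0.97 for Tnfrsf11b. Enzyme genes that fell in fibroblasts were at -0.92 for Csgalnact1, -0.88 for Arsj and -0.81 for Ptgs1, with -1.44 for Tstd3. Hoxc10 was at -1.03 and Hoxc8 at -0.86, and Trim30a, Nabp1 and Fbxl5 were at -1.02, -0.95 and -0.63. Cell cycle genes were at -0.65 for Prc1, -0.61 for Ccnb2 and -0.57 for Ccna2.

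Of the genes with a higher knockout mean in ES cells and no called fibroblast effect, 4933402E13Rik was at -3.25, Fthl17a at -1.54, Krtdap at -1.24, Dmkn at -0.97, Gng10 at -1.23, Dok2 at -1.16 and Sh3tc1 at -0.82. The lipid genes Scd1, Sc5d and Scd2 were at -1.08, -1.06 and -0.79. Positive differences of genes that rose in fibroblasts were 1.26 for Ccl2, 0.99 for Hspa1a, 0.84 for Hspa1b, 0.96 for Plxnd1, 1.04 for Cbr2, 1.19 for Pdzd4, 1.05 for Lce1f, 0.71 for Cap2, 0.75 for Eno2 and 0.80 for Ifit2. Those of genes with a lower knockout mean in ES cells and no called fibroblast effect were 1.65 for Ubd, 1.05 for Khsrp, 0.80 for Arrdc4, 0.73 for B3gnt4, 0.76 for Tmem169, 0.89 for Dlx1as and 0.92 for H2al2a.

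In control probe sets outside the gene test, the hybridization spikes were higher in knockout than in wild-type fibroblasts by 0.55 and 18S rRNA by 0.79, and lower in knockout than in wild-type ES cells by 0.25 and 0.88. Their part in the results was not tested.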

How the results depend on the processing

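The count of called differences, 53 in the analysis reported, was 33 with 1 spread shared by the 12 arrays (7 positive, 26 negative), 170 with 1 shared by all 18, 33 with array weights, 211 with the replicate block in both cell types, 81 with the replicate block in fibroblasts only, and 19 of 10254 genes above the 40th percentile of signal. It was 128 without both ES arrays numbered 1, 104 without both fibroblast arrays numbered 1, 26 with a size of at least 1 on the log2 scale, and 10 to 94 without single arrays. Of the 53, 29, 46, 19, 51, 53, 19, 37 and 49 were called in the first 8 of these. Without trend, with a robust prior, with mean probe sets, median centring or quantile normalization the count was 36, 46, 52, 51 and 74. The Ccnc difference of 1.07 passed with 1 spread shared by 18 arrays and with array weights, at the same 1.07, and ranged from 0.95 to 1.27 without single arrays. The count in ES cells alone, 2, was 1 with the replicate block, with mean probe sets or above the 40th percentile, 6 without both ES arrays numbered 1, and 0 to 6 without single arrays; that in fibroblasts was 900 to 2609 without single arrays. Differences near 0 changed sign for Cd38 (0.037 without both ES arrays numbered 1), and without single arrays those of Cd38 ranged from -0.23 to 0.11, of Plaur from -0.40 to 0.067 (0.0064 in 1 other fit above 0) and of Sbsn from -0.0076 to 0.33 (-0.0032 in 1 other fit below 0). The causes were not tested, beyond the fewer arrays or genes that some settings use. Each ES group has 3 arrays with a wide spread, which limits what the difference can show.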

Other observations

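Other genes named by the rule changed in fibroblasts with small or opposite ES effects, and none of the differences named in this paragraph passed the test on all 12 arrays. Hmox1, heme oxygenase 1, rose in fibroblasts (0.76) at -0.05 in ES cells, and Gclc, a subunit of the enzyme that limits glutathione synthesis, had effects of 0.37, a called rise, and -0.31 (adjusted p of the differences 0.121 and 0.0894). The p53 targets Ei24 and Gdf15 rose in fibroblasts (0.72 and 0.75) at -0.10 and -0.14 in ES cells (adjusted p = 0.0615 and 0.121). Tgif1, a corepressor of TGF-β signals, had effects of 0.30 and -0.46 (adjusted p = 0.0618) and Ltbp2, a matrix protein, 0.51 and -0.04 (adjusted p = 0.0761). Pdgfra, a PDGF receptor, fell in fibroblasts (-1.11) at 0.52 in ES cells, with a difference of -1.63 and an SE of 0.52 (adjusted p = 0.257). Id2, an inhibitor of helix-loop-helix factors, had the larger effect in ES cells, at 0.37 in fibroblasts, a called rise, and 1.67 in ES cells (difference -1.30, adjusted p = 0.173). Without both ES arrays numbered 1 the differences of Hmox1, Gclc, Ei24, Tgif1, Pdgfra and Id2 passed (adjusted p = 0.0374, 0.0333, 0.0394, 0.0486, 0.0372 and 0.0192), and those of Gdf15 and Ltbp2 did not (0.103 and 0.118). Krt18, a keratin of simple epithelia outside the rule, rose in fibroblasts (1.38) at 0.65 in ES cells (difference 0.73, adjusted p = 0.468).

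Called differences stood on 18 chromosomes. Chromosome 15 held 6 (0.875% of its 686 genes tested): Hoxc8, Hoxc10, Ly6a, Rspo2, C1qtnf3 and Tnfrsf11b. Chromosome 17 held 6 (0.754% of 796): H2-D1, H2-K1, Ubd, Hspa1a, Hspa1b and Khsrp. Chromosome X held 4 (0.646% of 619): 4933402E13Rik, Fthl17a, Agtr2 and Pdzd4. These shares are descriptions and were not tested.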
